A study of Glycine max with 12 samples.

Results

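The comparison described here is that of V3 leaves of the soybean line GmNAC81-3 with V3 leaves of the cultivar BR16, both sampled 20 days after germination (DAG), and it covers 6 of the 12 libraries of the series. The libraries were chosen by genotype and day in the sample labels, and their counts were summed per Glyma locus. GmNAC81-3 carries a 35S:GmNAC81 transgene, that is, the coding sequence of GmNAC81 behind a viral promoter active in most plant cells, in the BR16 background. It is a single transgenic line, so that the transgene, its place of insertion and other differences of the line from BR16 cannot be told apart in this contrast. BR16, which carries no transgene, is the parent cultivar. Leaf discs from the third leaf were used, with 3 plants per group, and nothing else differed between the groups according to the labels. The other 6 libraries came from leaves of both genotypes at R6, 80 DAG, and enter here through the shared estimate of the spread and for a comparison of the genotype effect at that stage.

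GmNAC81 belongs to the NAC family of plant transcription factors, many of which are induced by stress or in ageing leaves. It acts downstream of stress signals in a soybean cell death pathway, in which vacuolar processing enzymes (VPEs), cysteine proteases of the vacuole, carry out the last step. Wounding and jasmonate genes, such as lipoxygenases and protease inhibitors, and abscisic acid (ABA) genes of the drought response are the other groups described below, with names and roles that come mostly from Arabidopsis.

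Levels are given in CPM, that is, counts relative to the library size after TMM scaling. After scaling, the effective library size was 24610928 to 30282246 counts in GmNAC81-3 V3, against 58578850 to 77726386 counts in BR16 V3. The 3 most abundant loci took 44.1 to 58.5% of all counts in GmNAC81-3 V3, against 32.1 to 38.5% in BR16 V3. A count of 3, taken here as the limit of detection in 1 library, corresponds to 0.0991 to 0.122 CPM in GmNAC81-3 V3 and to 0.0386 to 0.0512 CPM in BR16 V3. Rubisco activase, the chaperone of the enzyme of carbon fixation and a marker of green leaf tissue, was abundant in all 6 libraries, between 212 and 8945 CPM over its 4 loci. Markers of other leaf or plant cell types were not checked, since the count table holds no gene descriptions. GmNAC81-3 V3 replicate 1 stood apart from its group. Over all tested loci, it correlated with BR16 V3 replicate 1 at 0.943 (Pearson's r of log2 CPM), above its correlations of 0.926 and 0.912 with the other GmNAC81-3 V3 libraries. BR16 V3 replicate 1, in turn, correlated at only 0.923 with BR16 V3 replicate 2, and at 0.952 with BR16 V3 replicate 3.

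GmNAC81 itself (Glyma.12G022700, with the entry of the transgene added) was counted 2479, 4520 and 938 times in the GmNAC81-3 libraries, against 210, 501 and 444 times in the BR16 libraries. This corresponded to 81.9, 184 and 33.4 CPM in GmNAC81-3, against 3.58, 6.45 and 7.26 CPM in BR16. The groups did not overlap and replicate 3 was the lowest of the GmNAC81-3 libraries. The log2 fold change was 4.11 ± 0.70 (standard error, n = 3 each; adjusted p = 0.0123 by edgeR's quasi-likelihood test). The call was lost without BR16 V3 replicate 2 (adjusted p = 0.0513) and without BR16 V3 replicate 3 (adjusted p = 0.0651).

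Of 39443 loci tested, 691 were higher in GmNAC81-3 (1.75% of those tested) and 667 were lower (1.69%), together 3.44%. Calls required a log2 fold change past 1 in either direction together with an adjusted p below 0.05. Unless another tool is named, adjusted p-values come from edgeR (quasi-likelihood), with the Benjamini-Hochberg method applied to all tested loci. Of the loci called higher, 682 had 3 GmNAC81-3 libraries above all BR16 libraries, and 662 of those called lower had them below. Over all tested loci, the libraries did not overlap at 11.7% with GmNAC81-3 higher and at 12.3% with GmNAC81-3 lower. The counts rested on a few libraries. Without BR16 V3 replicate 3 they fell to 89 higher and 62 lower, without GmNAC81-3 V3 replicate 2 to 179 and 116, and without BR16 V3 replicate 2 to 202 (0.502%) and 164 (0.408%). Without GmNAC81-3 V3 replicate 1 they reached 1053 and 1766, and without BR16 V3 replicate 1 they reached 986 and 1147. Leaving out replicate 1 of both groups together gave 1234 higher (3.05%) and 1902 lower (4.7%). The calls of 86 loci higher and 54 lower were kept in each of the 12 fits that left out 1 library.

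A pairing of the V3 libraries by replicate number was taken from the data, since the labels state none. In deviations from group means, GmNAC81-3 replicate 3 correlated more with BR16 replicate 2 (0.208) than with BR16 replicate 3 (0.129). The replicate number then served as a block in a fit of the 6 V3 libraries alone. This fit called 862 loci higher (2.43% of those it tested) and 951 lower (2.68%). Among them were 553 of the 691 and 422 of the 667 loci called above. Without the block, the V3 libraries alone gave 8 higher (0.0226%) and 6 lower (0.0169%), all 14 among the loci called above, and the block in the fit of 12 libraries gave 404 higher (1.02%) and 370 lower (0.938%). DESeq2 called 1429 higher (3.61%) and 1690 lower (4.27%). The V3 libraries alone with the block are named below as the paired fit. Its block was chosen on the same counts that it tests, so its calls are not independent support. The adjusted p of the paired fit is given for part of the loci where it changes a call.

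**Figure D1:**
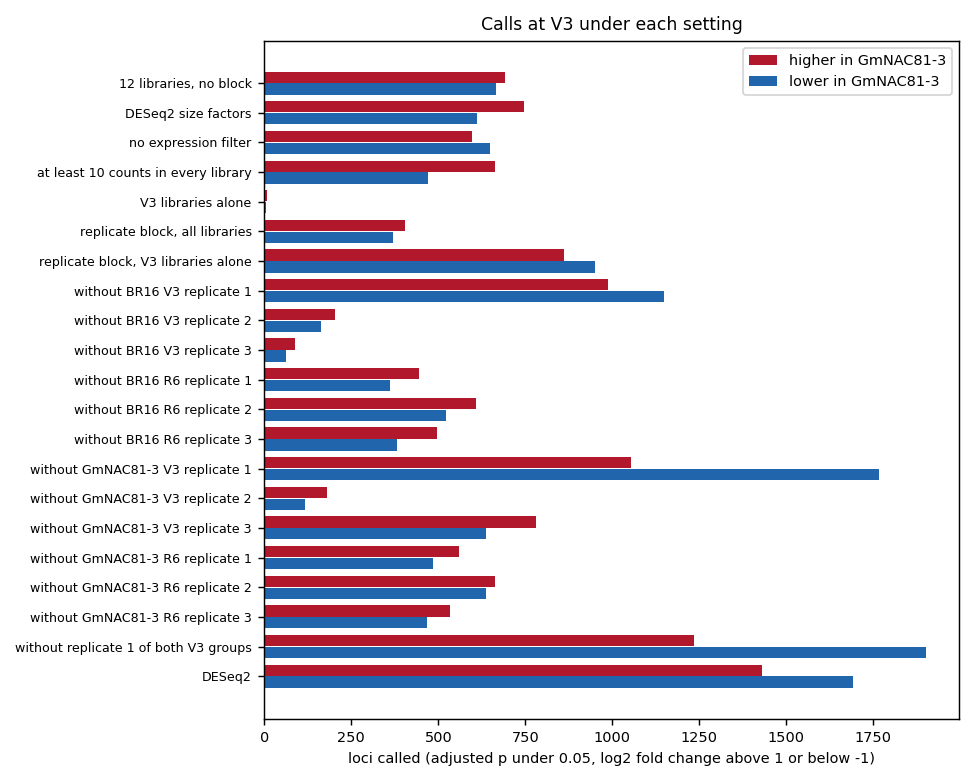
Number of loci called at V3 (x axis) under each processing setting (y axis), with loci higher in GmNAC81-3 above those lower. The counts are 691 and 667 in the fit of 12 libraries and 8 and 6 with the V3 libraries alone. The scaling without the 3 most abundant loci, which gave 306 and 6921, is left out of the plot.

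The 2 directions differed in the levels of their loci. Loci called higher had a median level of 9.08 CPM over the 6 V3 libraries, against 1.42 CPM for loci called lower and 2.57 CPM for all tested loci. Of the 688 loci with 100 CPM or more, 36 were called higher and 3 lower. Of the 12749 loci under 1 CPM, 79 were called higher and 245 lower. The median log2 fold change moved with the level as well: it was -0.30 under 1 CPM, -0.05 from 1 to 10 CPM, 0.20 from 10 to 100 CPM and 0.64 at 100 CPM or more. The scaling bears on this balance. With library sizes that left out the 3 most abundant loci, and without TMM, the median over all loci moved to -0.67 and the calls to 306 higher and 6921 lower, a share of 4.23% higher against 50.9% with TMM. Changes are given below relative to a median of -0.04 over all loci with TMM.

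**Figure D2:**
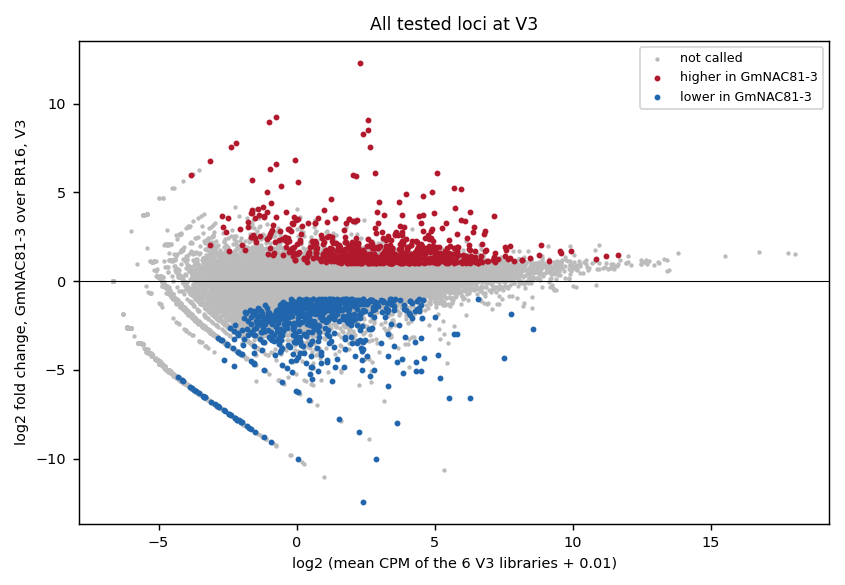
log2 fold change of GmNAC81-3 over BR16 at V3 (y axis) against the log2 of the mean CPM of the 6 libraries plus 0.01 (x axis), 1 point per tested locus. The points of loci called higher lie at higher levels (median 9.08 CPM) than those of loci called lower (median 1.42 CPM), and the diagonal lower edge holds loci at 0 in all GmNAC81-3 libraries.

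Descriptions were at hand for 395 loci, which the study lists in its supplement under terms for senescence, cell death, hormones, wounding, circadian rhythm and drought. Those lists were chosen by the study on these same libraries, so a direction within them is not independent evidence. Of the 392 described loci that were tested, 25 were called higher and 21 lower, beside 1.75% and 1.69% of all loci, and the median log2 fold change was 0.25. Under the scaling without the 3 most abundant loci it was -0.38, beside -0.67 for all loci. The lists differed in direction. Of 63 tested loci under leaf senescence, 7 were higher and 1 was lower (median 0.52, or -0.09 under that scaling), and of 53 under drought stress, 4 were higher and 9 lower (median -1.34, or -2.02). Response to wounding, the longest list with 121 tested loci, had 7 higher and 4 lower (median 0.10, or -0.53), and cell death had 4 higher and none lower of 29 (median 0.43, or -0.17). The separate list of programmed cell death leaned the other way: of 12 tested loci none was called, and 10 had a negative log2 fold change (median -2.32, or -2.92). The paired fit called 4 of these 12 lower. Without BR16 V3 replicate 2 there were 3 higher and none lower under leaf senescence, 2 and 3 under drought stress, 3 and 1 under wounding and none under cell death. Of the 46 calls, 33 were also made by the paired fit and 46 by DESeq2. Those of 4 loci, PDR12 Glyma.07G033500, annexin 1, PCK1 and an ARM repeat protein, were kept whichever library was left out, while 41 were lost when BR16 V3 replicate 3 was left out, 34 for BR16 V3 replicate 2 and 34 for GmNAC81-3 V3 replicate 2.

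**Figure D3:**
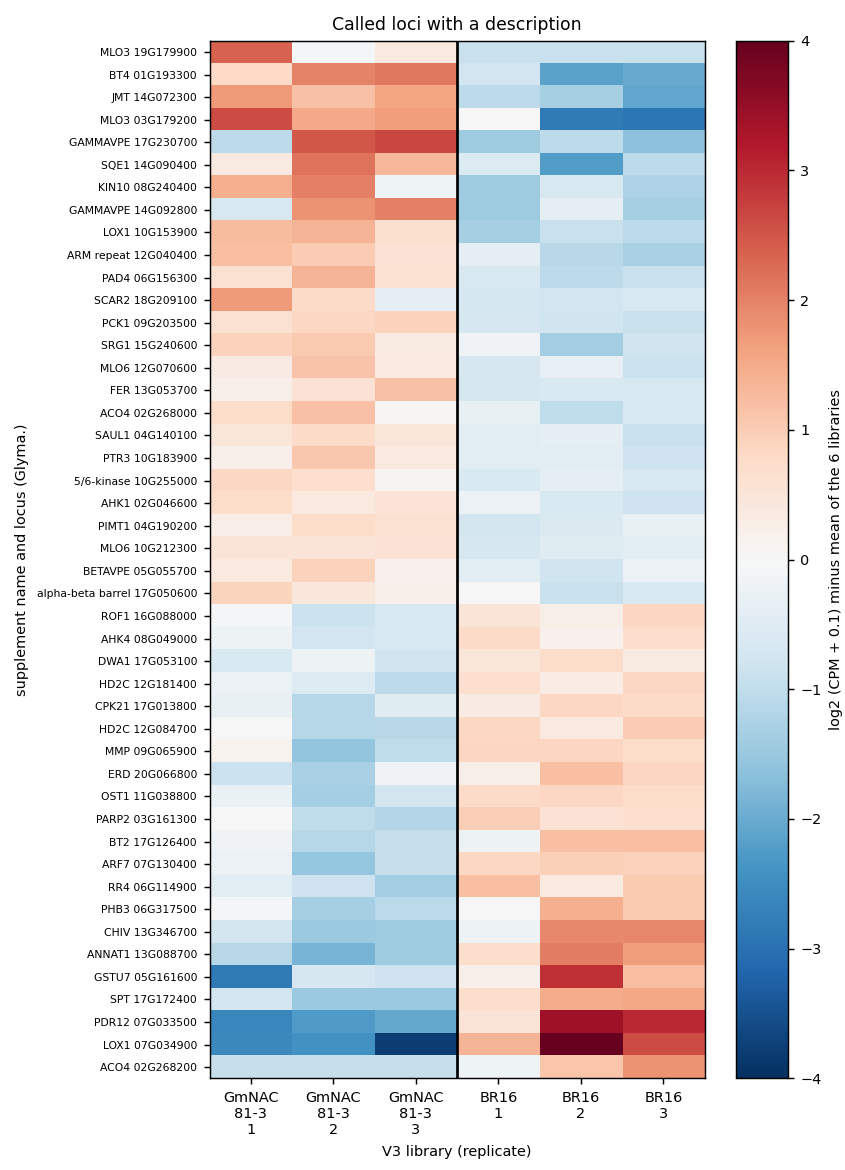
Levels of the 46 called loci with a description (rows, from the highest to the lowest log2 fold change) in the 6 V3 libraries (columns), as log2 (CPM + 0.1) minus the mean of the row. Red is above and blue below that mean. LOX1 and PDR12, near the bottom, are reddest in BR16 V3 replicates 2 and 3, and the 2 rows marked GAMMAVPE are blue in GmNAC81-3 V3 replicate 1.

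VPEs cleave and activate proteins of the vacuole, and γVPE is the form that acts in leaves during cell death and senescence in Arabidopsis. The γVPE locus Glyma.17G230700 held 13, 154 and 174 CPM in the GmNAC81-3 libraries, against 10, 13.1 and 8.73 CPM in the BR16 libraries. Replicates 2 and 3 of GmNAC81-3 were high and replicate 1 lay within the BR16 range. The log2 fold change was 3.42 ± 0.74 (adjusted p = 0.0299), and the paired fit did not call it (adjusted p = 0.0576). Its paralog Glyma.14G092800 had the same shape, with 29.0, 155 and 180 CPM in GmNAC81-3 against 16.6, 34.1 and 17.6 CPM in BR16. In this locus, too, GmNAC81-3 replicate 1 lay within the range of BR16. The third γVPE locus, Glyma.04G049900, which has its name from the text of the study, was not called (log2 fold change 0.36, adjusted p = 0.552), and a βVPE locus, Glyma.05G055700, was higher in each GmNAC81-3 library, with 1.59, 2.36 and 1.35 CPM against 0.854, 0.643 and 0.997 CPM (log2 fold change 1.08, adjusted p = 0.0466; paired fit 0.139). The γVPE levels did not follow the level of GmNAC81 among the GmNAC81-3 libraries. Replicate 3 held the least GmNAC81 of the 3 and the most γVPE from both loci. The calls for Glyma.14G092800, Glyma.17G230700 and Glyma.05G055700 were kept in 1, 7 and 3 of the 12 fits that left out 1 library; without BR16 V3 replicate 2 the adjusted p of these loci was 0.0869, 0.0899 and 0.151.

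**Figure D4:**
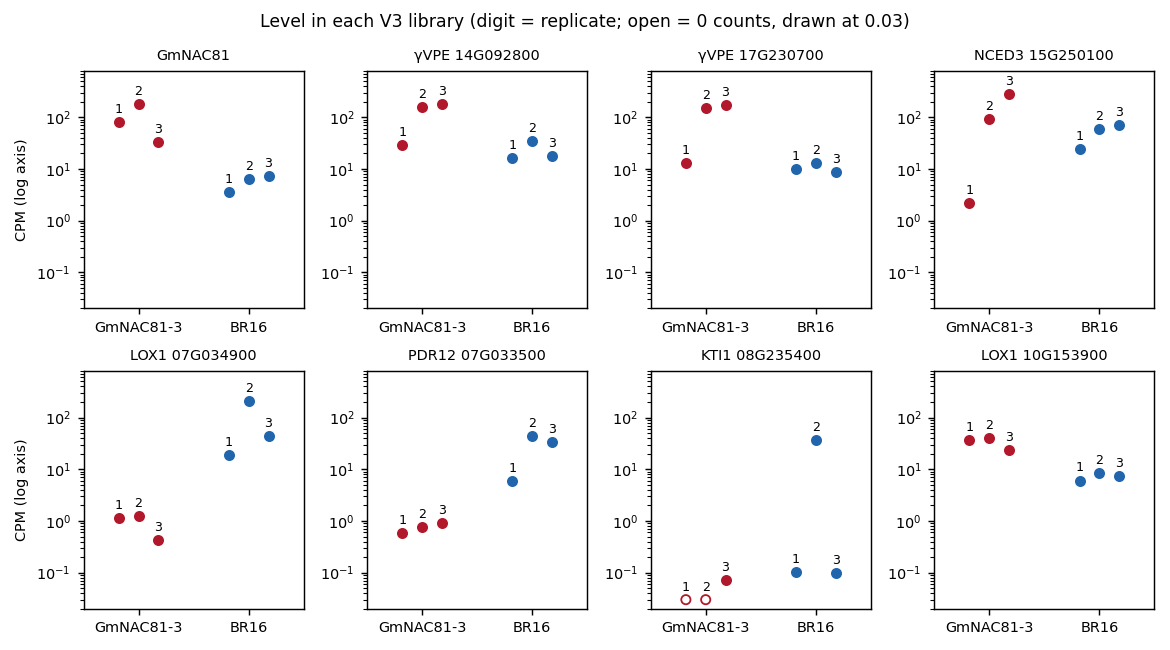
Level in CPM (log axis) of 8 loci in each V3 library, with GmNAC81-3 on the left and BR16 on the right of each panel and the replicate number above each point; open points had 0 counts. Replicate 1 of GmNAC81-3 lies below the other 2 in both γVPE panels and in NCED3, and BR16 replicate 2 is the highest point for LOX1 Glyma.07G034900, PDR12 and KTI1.

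Among the other loci of the senescence and nitrogen lists, phosphoenolpyruvate carboxykinase PCK1 (Glyma.09G203500), an enzyme that turns organic acids toward sugars and amino acids, held 28.3, 33.0 and 35.3 CPM in GmNAC81-3, against 11.6, 10.7 and 9.97 CPM in BR16. The libraries of each group were close together, and the log2 fold change was 1.58 ± 0.22 (adjusted p = 0.0056). An ARM repeat protein of unstated role (Glyma.12G040400) rose likewise, with 14.3, 12.5 and 9.18 CPM in GmNAC81-3 against 4.64, 2.75 and 2.42 CPM in BR16 (log2 fold change 1.88 ± 0.27, adjusted p = 0.00616). SAUL1 (Glyma.04G140100), a ubiquitin ligase that holds back premature senescence in Arabidopsis, held 5.94, 7.23 and 6.05 CPM in GmNAC81-3, against 3.06, 3.24 and 2.26 CPM in BR16 (log2 fold change 1.17 ± 0.18, adjusted p = 0.00802). Its call was lost without BR16 V3 replicate 3 (adjusted p = 0.0525). The senescence-related gene SRG1 was called higher at 1 of 6 loci, Glyma.15G240600, with 15.8, 17.4 and 10.8 CPM in GmNAC81-3 against 7.60, 3.09 and 4.79 CPM in BR16. Its call was lost without BR16 V3 replicate 2, BR16 V3 replicate 3 or GmNAC81-3 V3 replicate 2 (adjusted p up to 0.115). The other SRG1 loci had log2 fold changes from -4.48 to 0.61 and were not called.

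Of 7 nitrate and peptide transporter loci, 6 had a log2 fold change above 0 (median 1.18), also under the scaling without the 3 most abundant loci, and 1 was called. PTR3 (Glyma.10G183900), a peptide transporter, held 125, 231 and 142 CPM in GmNAC81-3, against 80.9, 81.6 and 61.4 CPM in BR16 (log2 fold change 1.15 ± 0.28, adjusted p = 0.044), and this call was kept in only 2 of the 12 fits that left out 1 library. Another PTR3 locus, Glyma.10G005300, was lower, with 0.264, 1.06 and 1.71 CPM in GmNAC81-3 against 1.33, 6.18 and 3.53 CPM in BR16. It was the 1 locus of the 7 below 0 (log2 fold change -1.87), and its libraries overlapped. The fit of 12 libraries did not call this locus (adjusted p = 0.112), whereas the paired fit (0.0264) and DESeq2 (0.0458) called it lower. None of the 4 loci of NRT1.5, a nitrate transporter that loads the xylem in Arabidopsis roots, was called. Their log2 fold changes ran from 1.18 to 3.23. The value of 3.23, at Glyma.09G237600, rested on GmNAC81-3 replicate 1. This locus had 70, 4 and 2 counts in GmNAC81-3 against 4, 8 and 6 in BR16. Without replicate 1 of both groups its log2 fold change was 0.18. Another NRT1.5 locus, Glyma.05G070600, held 29.0, 50.5 and 34.0 CPM in GmNAC81-3 against 10.7, 17.2 and 20.4 CPM in BR16, without overlap. Its adjusted p was 0.0967, against 0.0306 in the paired fit. The kinase KIN10, a sensor of sugar and energy shortage, was called higher at Glyma.08G240400 with 4.09, 6.09 and 1.28 CPM in GmNAC81-3, against 0.478, 0.901 and 0.556 CPM in BR16 (log2 fold change 2.55 ± 0.45, adjusted p = 0.0144), a call lost without BR16 V3 replicate 3 or GmNAC81-3 V3 replicate 2 (adjusted p up to 0.0796). The other KIN10 locus, Glyma.13G060400, held 34.1, 32.5 and 30 CPM in GmNAC81-3, against 28.3, 27.1 and 32.4 CPM in BR16, and its log2 fold change of 0.14 ± 0.16 did not pass (adjusted p = 0.654).

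Loci of rubisco activase, catalase, glutamine synthetase and serine hydroxymethyltransferase did not pass the test, but all had log2 fold changes above 0 with TMM. The 4 rubisco activase loci had log2 fold changes from 0.57 to 1.20, with a median of 0.96, and the 10 loci of catalase, glutamine synthetase and serine hydroxymethyltransferase had a median of 0.85 with all 10 above 0; under the scaling without the 3 most abundant loci, 3 of the 4 and 8 of the 10 stayed above 0. The most abundant activase locus, Glyma.11G221000, held 8676, 8945 and 7205 CPM in GmNAC81-3, against 5238, 2471 and 3936 CPM in BR16 (log2 fold change 1.09, adjusted p = 0.17). BR16 replicate 2 was the lowest library for each of the 4 activase loci. At 100 CPM or more the median over all loci was 0.64, as given above.

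Receptor kinases of the FERONIA type, which sense the state of the cell wall in Arabidopsis, had 11 of 12 loci above 0 (median 0.63), of which 9 stayed above 0 under the scaling without the 3 most abundant loci. In 10 of the 12, every GmNAC81-3 library lay above every BR16 library, against 11.7% of all loci, and many of these loci stand beside each other on chromosome 18 and may share reads. A single one was called, Glyma.13G053700, with 3.57, 4.71 and 7.04 CPM in GmNAC81-3 against 1.89, 1.99 and 1.96 CPM in BR16 (log2 fold change 1.39 ± 0.26, adjusted p = 0.0167). MLO proteins, membrane proteins known as susceptibility factors for powdery mildew, had 4 of 11 loci called higher, where 1.75% of all loci were called higher. Of the 11, 8 were above 0, or 5 under the scaling without the 3 most abundant loci. The paired fit called 2 of the 11 higher and 1 lower, and without BR16 V3 replicate 2 none was called. MLO6 Glyma.10G212300 held 14.5, 14.7 and 15.4 CPM in GmNAC81-3, against 6.28, 7.17 and 7.47 CPM in BR16 (log2 fold change 1.09, adjusted p = 0.0314). Of the others called, MLO3 Glyma.03G179200 held 10.4, 4.79 and 5.37 CPM in GmNAC81-3, against 1.60, 0.142 and 0.131 CPM in BR16 (log2 fold change 3.48 ± 0.80, adjusted p = 0.0356). The other MLO3 locus, Glyma.19G179900, had no count in BR16 and 26, 2 and 4 counts in GmNAC81-3. The GmNAC81-3 mean was at least 7.79-fold above a floor of 3 counts per library in BR16. That mean came mostly from replicate 1, and replicate 2 held fewer than 3 counts. PAD4 (Glyma.06G156300), a lipase-like protein of salicylic acid signalling, held 11.4, 19.2 and 11.5 CPM in GmNAC81-3, against 4.75, 3.55 and 4.02 CPM in BR16 (log2 fold change 1.77 ± 0.29, adjusted p = 0.0107). Left out in turn, BR16 V3 replicates 2 and 3 each ended the calls of Glyma.13G053700 (adjusted p up to 0.0814), both MLO3 loci (up to 0.121 and 0.0916) and PAD4 (up to 0.0654), GmNAC81-3 V3 replicate 2 those of Glyma.13G053700 and Glyma.03G179200, and the R6 libraries BR16 replicates 1 and 3 and GmNAC81-3 replicate 1 that of Glyma.03G179200. The MLO6 call was kept in 6 of the 12 fits.

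Among the wounding and jasmonate genes, several loci were far lower in GmNAC81-3 and spread widely in BR16. Lipoxygenases start the synthesis of jasmonates from fatty acids. The lipoxygenase locus Glyma.07G034900, described as LOX1, held 1.12, 1.26 and 0.427 CPM in GmNAC81-3, against 18.7, 207 and 44.2 CPM in BR16. All GmNAC81-3 libraries lay far below BR16, within which replicate 2 was the highest. Its log2 fold change was -6.59 ± 1.06 (adjusted p = 0.01), and without BR16 V3 replicate 2 it was -5.08 (adjusted p = 0.0199). The call was lost without GmNAC81-3 V3 replicate 2 (adjusted p = 0.0527). Another LOX1 locus, Glyma.10G153900, went the other way, with 37.1, 40.2 and 23.9 CPM in GmNAC81-3 against 6.06, 8.30 and 7.51 CPM in BR16 (log2 fold change 2.21 ± 0.41, adjusted p = 0.0172), a call lost without BR16 V3 replicate 2, BR16 V3 replicate 3 or GmNAC81-3 V3 replicate 2 (adjusted p up to 0.0829). None of the other 14 lipoxygenase loci was called. Among them, LOX2 Glyma.13G030300 had a log2 fold change of -3.24 and an adjusted p of 0.0704, against 0.00899 in the paired fit and 0.00282 with DESeq2.

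Downstream of the lipoxygenases, 17 loci of jasmonate synthesis and conversion had 1 call. JMT (Glyma.14G072300), the enzyme that makes methyl jasmonate, was higher in GmNAC81-3 with 2.18, 1.46 and 1.99 CPM, against 0.239, 0.180 and 0.0654 CPM in BR16 (log2 fold change 3.52 ± 0.57, adjusted p = 0.00972). Its call was lost without BR16 V3 replicate 3 (adjusted p = 0.0552). Allene oxide synthase Glyma.04G035000, by contrast, held 0.066, 0.163 and 0 CPM in GmNAC81-3, against 0.0683, 10.7 and 0.0981 CPM in BR16. Its high mean in BR16 came from replicate 2 alone, the groups overlapped, and the adjusted p was 0.104.

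Protease inhibitors are made by plants against chewing insects. The same library exceeded each other V3 library by more than 3 times at 4 of the 7 tested inhibitor loci. The Kunitz inhibitor KTI1 locus Glyma.08G235400 held 0, 0 and 0.0712 CPM in GmNAC81-3, against 0.102, 36.2 and 0.0981 CPM in BR16. BR16 replicate 2 stood alone above 35 CPM, and the log2 fold change was -8.87 with an adjusted p of 0.0624, against -1.98 with an adjusted p of 0.307 without that library. The potato type I inhibitor Glyma.20G205800 behaved alike, with 0.264, 0.0813 and 0.142 CPM in GmNAC81-3 against 0.222, 53.4 and 0.213 CPM in BR16 (adjusted p = 0.0708). At 3 neighbouring KTI1 loci the fold change did not rest on that library alone. Glyma.08G341600 held 1.19, 0.488 and 2.35 CPM in GmNAC81-3, against 7.10, 7.80 and 14.8 CPM in BR16. Its log2 fold change was -2.87 (adjusted p = 0.109), it was -3.02 without BR16 V3 replicate 2, and the paired fit called it (adjusted p = 0.00663), as it did Glyma.08G341700 (0.0142) and Glyma.08G341800 (0.0172). Without BR16 V3 replicate 2 the log2 fold changes of Glyma.08G341700 and Glyma.08G341800 were -3.93 and -4.39, and neither these nor Glyma.08G341600 passed (adjusted p = 0.156, 0.157 and 0.179). Close by, KTI1 Glyma.08G342100 did rest on it, with 0.066, 0 and 0.0712 CPM in GmNAC81-3 against 0.0683, 6.6 and 0.687 CPM in BR16, and its log2 fold change was -5.63 with that library and -2.94 without it. Such adjacent KTI1 copies may share reads. None of the 7 tested protease inhibitor loci was called in the 12-library fit without the block, whereas DESeq2 called 4 lower and the fit without replicate 1 of both groups called 2 lower. All 7 had a negative log2 fold change (median -5.63; -2.94 without BR16 V3 replicate 2).

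Over all described loci, 52 had a log2 fold change below -2 and 7 of these were called, whereas 12 were above 2 and 9 of these were called. Over all tested loci, likewise, 315 of 1624 below -2 were called and 198 of 420 above 2. BR16 V3 replicate 2 was the highest of the 6 libraries at 40 of the 52. It was the highest at 31.4% of the 392 described loci, against 19.7% of all tested loci. It exceeded each of the other 5 V3 libraries by more than 3 times at 21 described loci, or 5.36%, of which 13 are among the wounding loci, against 0.908% of all tested loci. Leaving it out kept 191 of the 691 loci called higher and 162 of the 667 called lower, and among the described loci it left 8 called higher and 5 lower.

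PDR12 (ABCG40) is a transporter that takes ABA into cells in Arabidopsis. The locus Glyma.07G033500 held 0.594, 0.772 and 0.925 CPM in GmNAC81-3, against 5.94, 43.7 and 34.1 CPM in BR16, with BR16 replicate 1 the lowest of its group and still above all GmNAC81-3 libraries. The log2 fold change was -5.19 ± 0.68 (adjusted p = 0.004), and leaving out single libraries gave values of -5.67 to -4.72. Of the other 6 PDR12 loci none was called, and 3 of them had positive log2 fold changes of 0.75 to 1.26. Annexin 1 (Glyma.13G088700), a calcium-binding membrane protein, fell in the same way, with 14.4, 8.37 and 11.6 CPM in GmNAC81-3 against 50, 127 and 97.9 CPM in BR16 (log2 fold change -3 ± 0.40, adjusted p = 0.00426).

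Of 48 tested loci of ABA and drought genes, 8 were called lower and 4 higher, and 38 had a log2 fold change below 0 (median -1.33), where 1.69% of all loci were called lower and 1.75% higher. BR16 V3 replicate 2 was the highest library at 30 of the 48 (62.5%, against 19.7% of all loci), and without it 2 were called lower and 2 higher (median -1.15). OST1, the kinase through which ABA closes stomata, was called lower at Glyma.11G038800, with 1.32, 0.569 and 0.925 CPM in GmNAC81-3 against 2.82, 2.91 and 2.75 CPM in BR16. The BR16 libraries were close together, and the log2 fold change was -1.58 ± 0.28 (adjusted p = 0.0133). HD2C, a plant histone deacetylase, was lower in GmNAC81-3 at each of its 3 loci without overlap, of which 2 were called, where 12.3% of all loci lay lower without overlap and 1.69% were called lower. At Glyma.12G181400 the GmNAC81-3 libraries held 6.77, 5.44 and 3.77 CPM, against 12.8, 9.86 and 14.1 CPM in BR16 (log2 fold change -1.20 ± 0.27, adjusted p = 0.0326), and at Glyma.12G084700 they held 2.51, 1.06 and 1.1 CPM, against 4.51, 3.26 and 5.07 CPM (log2 fold change -1.45 ± 0.31, adjusted p = 0.0297). The OST1 call was lost without BR16 V3 replicate 3 (adjusted p up to 0.061), and those of HD2C in 5 and 4 of the 12 fits that left out 1 library. An ERD family protein (Glyma.20G066800) was also called lower (log2 fold change -1.52, adjusted p = 0.0377) and kept that call in 5 of the 12 fits, whereas ERD15 (Glyma.11G149900) had overlapping libraries. Among aquaporins, the water channels, TMP-C Glyma.05G208700 held 1.06, 0.244 and 0.285 CPM in GmNAC81-3, against 5.99, 1.84 and 1.47 CPM in BR16, and missed the threshold (adjusted p = 0.076), but passed in the paired fit (0.00899), with the block in 12 libraries (0.045) and with DESeq2 (0.0243). PIP2A Glyma.03G180900 (log2 fold change -1.50, adjusted p = 0.0995) and the cold and drought factor CBF4 Glyma.09G147200 (-0.71, adjusted p = 0.336) were not called.

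Some drought loci were low in both replicate 1 libraries and missed the threshold, but passed in the paired fit and with DESeq2. The zinc finger factor ZAT10 (Glyma.06G045400) held 0.198, 1.14 and 1.07 CPM in GmNAC81-3, against 0.683, 7.19 and 5.76 CPM in BR16. Within each replicate number GmNAC81-3 was the lower one, and the log2 fold change of -2.52 had an adjusted p of 0.11, against 0.00899 in the paired fit and 0.0204 with DESeq2. Another ZAT10 locus, Glyma.04G044900, had overlapping libraries and a log2 fold change of -0.87. It passed in none of these fits (adjusted p = 0.42, paired fit 0.412, DESeq2 0.401). Galactinol synthase GolS2 (Glyma.19G227800), which makes a precursor of protective sugars, held 0.264, 1.54 and 5.41 CPM in GmNAC81-3, against 1.60, 41.4 and 39.9 CPM in BR16 (adjusted p = 0.0976; paired fit 0.00885; DESeq2 0.0313). NCED3 (Glyma.15G250100), which catalyses the limiting step of ABA synthesis, held 2.18, 93.2 and 285 CPM in GmNAC81-3, against 24.6, 59.5 and 70.6 CPM in BR16. It spread widely among the GmNAC81-3 libraries and showed no difference between the genotypes that could be detected (log2 fold change 1.30, adjusted p = 0.472). The osmosensing histidine kinase AHK1 (Glyma.02G046600) was higher in GmNAC81-3, with 25.8, 20.7 and 22.7 CPM against 13.2, 10.3 and 8.83 CPM in BR16 (log2 fold change 1.1 ± 0.23, adjusted p = 0.0276), and squalene epoxidase SQE1 (Glyma.14G090400) was higher with 11.2, 39.2 and 21.8 CPM against 5.87, 1.75 and 4.19 CPM in BR16 (log2 fold change 2.61 ± 0.48, adjusted p = 0.0155). Both calls were lost without BR16 V3 replicate 3 or GmNAC81-3 V3 replicate 2 (adjusted p up to 0.127 and 0.0768), and that of AHK1 without BR16 V3 replicate 2.

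In cytokinin signalling, which delays leaf senescence in many plants, 2 of 7 loci were called, both lower, where 1.69% of all loci were called lower. The paired fit called 3 of the 7 lower. None was called with the block in 12 libraries or without BR16 V3 replicate 2. The cytokinin receptor AHK4 (Glyma.08G049000) held 13.6, 9.14 and 9.93 CPM in GmNAC81-3, against 27.0, 17.6 and 25.4 CPM in BR16 (log2 fold change -1.1 ± 0.27, adjusted p = 0.0466). A response regulator described as RR4 (Glyma.06G114900) held 1.65, 1.22 and 0.783 CPM in GmNAC81-3, against 5.24, 3.00 and 4.76 CPM in BR16 (log2 fold change -1.83 ± 0.44, adjusted p = 0.0422). Both groups were separated at these loci, and the calls were kept in 2 and 4 of the 12 fits that left out 1 library. The auxin response factor ARF7 (Glyma.07G130400) fell as well, with 5.94, 2.36 and 3.66 CPM in GmNAC81-3 against 12.5, 13.6 and 13.5 CPM in BR16 (log2 fold change -1.72 ± 0.31, adjusted p = 0.015), a call lost without BR16 V3 replicate 2, BR16 V3 replicate 3 or GmNAC81-3 V3 replicate 2 (adjusted p up to 0.0667). Other loci described as ARF7 went both ways. Glyma.05G221300 was higher without overlap but below the fold limit (log2 fold change 0.83, adjusted p = 0.0469). Glyma.08G027800 (0.60), Glyma.01G002100 (-0.79) and Glyma.09G072200 (-0.76) were not called either. Of 15 loci of ethylene synthesis and signalling, 1 was called in each direction. The ethylene-forming oxidase ACO4 (Glyma.02G268000) held 303, 414 and 188 CPM in GmNAC81-3, against 149, 91.4 and 120 CPM in BR16. Its log2 fold change was 1.33 ± 0.32 (adjusted p = 0.0409), and the paired fit did not call it (adjusted p = 0.063). Its near neighbour Glyma.02G268200 had no count in GmNAC81-3 and 4, 24 and 34 counts in BR16. The BR16 mean was at least 2.85-fold above a floor of 3 counts per library in GmNAC81-3. BR16 replicate 1, at 0.0683 CPM, lay below that floor. The paired fit did not test this neighbour. The ACO4 calls were kept in 4 and 2 of the 12 fits. None of 20 clock and light loci was called. In the study's wider circadian rhythm list, 3 of 56 tested loci were called lower and none higher, where 1.69% of all loci were called lower.

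Most of the loci with the largest changes carry no description. Of the 8 highest and the 8 lowest called loci with separated libraries and at least 5 CPM in the higher group, 1 is described, LOX1 Glyma.07G034900, and none of the 14 loci called in the V3 libraries alone. The files do not pair their IDs with names. Glyma.04G094200 held 10.1, 11 and 14.5 CPM in GmNAC81-3, against 0.0341, 0 and 0.0654 CPM in BR16, and the 6 counts of all BR16 libraries together compare with 271 to 407 counts in each GmNAC81-3 library (log2 fold change 8.50 ± 0.69, adjusted p = 0.000681). Glyma.18G103500 was the reverse case, with 0, 0.163 and 0.142 CPM in GmNAC81-3 against 32.9, 18 and 23.9 CPM in BR16 (log2 fold change -7.97 ± 0.65, adjusted p = 0.000681). Such loci were near their floor in 1 genotype, and all 12 fits that left out 1 library called both. Chromosome 2 had the highest share of loci called higher, 82 of 2206 or 3.72%.

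The genotype effect at R6 is a contrast between other libraries than that at V3, although both come from 1 fit with 1 estimate of the spread, and the V3 calls depend on the R6 libraries through it. Of the 691 loci called higher at V3, 468 had a positive log2 fold change at R6 (67.7%, against 50.3% of all loci), and 20 were called higher there. These 20 are 20 of the 26 loci called higher at R6 in all (0.0659% of those tested). Of the 667 called lower at V3, 381 were negative at R6 (57.1%, against 49.7% of all loci), 5 were called lower and 1 higher, of 13 loci called lower at R6 (0.033%). Glyma.04G094200 was called there too, with 1.74, 0.658 and 1.71 CPM in GmNAC81-3 against 0.0355, 0.0818 and 0.127 CPM in BR16 (log2 fold change 4.07 ± 0.57, adjusted p = 0.0248). GmNAC81 itself held 46.6, 53.5 and 69.1 CPM in GmNAC81-3 at R6, against 60.7, 11.3 and 41.9 CPM in BR16, and the groups overlapped. PCK1, PDR12 Glyma.07G033500 and annexin 1 had log2 fold changes of -0.02, -0.62 and -0.64 at R6, none of them called, and the difference between the 2 stages was not past the threshold for any of these (adjusted p = 0.0988, 0.104 and 0.136). The difference passed at 28 loci of all 39443.

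**Figure D5:**
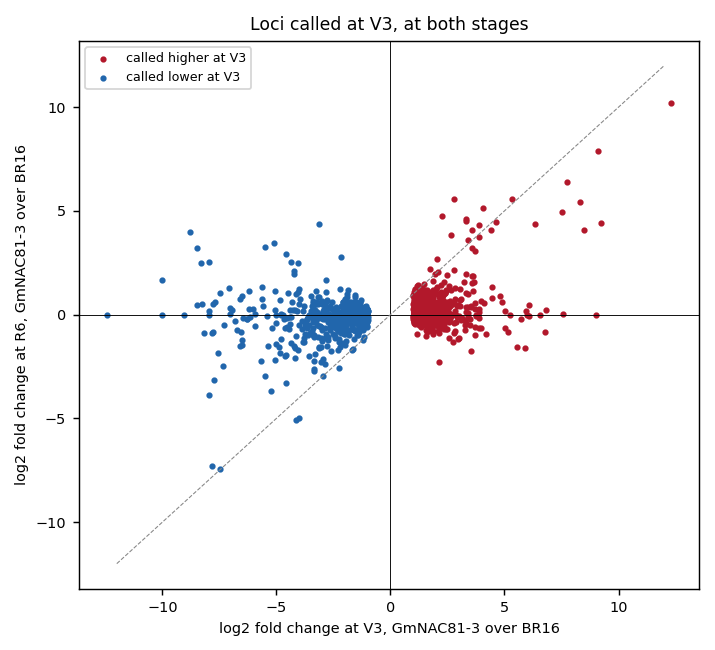
log2 fold change of GmNAC81-3 over BR16 at R6 (y axis) against that at V3 (x axis) for the 691 loci called higher and the 667 called lower at V3, with the line of equal effects dashed. Most points lie near 0 on the y axis, and 20 of the loci called higher at V3 were called higher at R6.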

How the data were processed

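The authors deposited raw counts per transcript model of the soybean genome Wm82.a2.v1, without normalization. According to the study's Supplementary Methods, stranded libraries were sequenced as paired reads, filtered with Sickle, mapped with Bowtie 2 and counted with Rsubread, whereas the submitters' processing notes name HISAT2 2.1.0 and featureCounts. The libraries of each stage formed a sequencing set of their own. Counts of 84782 models were summed to 52660 loci, and the transgene terminator entry was added to GmNAC81. Totals ran from 42797825 to 54670507 counts in GmNAC81-3 V3 and from 51908861 to 60500341 in BR16 V3. Low counts were mostly even (79.6 to 84.9% of counts under 50 in the V3 libraries), so that both reads of a pair may have been counted; limits from counts cover counting error only.

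Analysis used R 4.3.3, edgeR 4.0.16 (filterByExpr with the 4 groups, TMM, group means of all 12 libraries, quasi-likelihood test) and DESeq2 1.42.0 as an alternative. Standard errors are the log2 fold change over the square root of F. An exact permutation test of 3 against 3 libraries cannot give p below 0.1 and was not used. That replicates were separate plants is stated by the methods, not the labels, and p-values measure the spread between these samples. The procedure was tested on simulated data.

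Pairing was checked from deviations from group means: V3 libraries with the same number correlated at 0.404, 0.221 and 0.129 over 39443 loci, each above 0.1, and the numbers were taken as pairs. Differently numbered libraries correlated at -0.352 to 0.208, and GmNAC81-3 replicate 3 correlated more with BR16 replicate 2 (0.208) than with its own number. With numbers 2 and 3 swapped between the groups, the correlations were 0.0917 and 0.208, so the data hardly separate these 2 pairings. The pairing rests on the data, since the labels state none. Because the same counts were then tested, calls of the paired fit are not independent support.

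Alternatives were DESeq2, its size factors, library sizes without the 3 most abundant loci, other filters (none, or 10 counts in every library), V3 libraries alone, replicate blocks, other thresholds and each library left out. Replicate 1 of both groups left out together and counts per transcript model were added after seeing the data. The members and lists were chosen with earlier results of these data known.

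Loci named are GmNAC81; the 8 highest and 8 lowest called loci that were separated and had at least 5 CPM; up to 4 such loci per list; loci the study's text names; the 5 most abundant loci; and loci called in V3 alone. Names came from the study's supplement, because 0 loci matched the RefSeq table, so lists by RefSeq description were replaced by families and terms of the supplement; undescribed loci were held to 2 per direction, those printed chosen after seeing values, and the most abundant ones are not listed. JMT, KIN10, BT4, AHK1, RR4, SAUL1, GSTU7, PR4, GolS2, NCED3, LOX2, the allene oxide synthase, ACO4 Glyma.02G268200 and Glyma.11G221000 were named, or given with values, whether or not the rule reached them, after values were seen. Fold changes in the study's supplement were not used.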

Additional observations from a re-analysis of the deposited data

Results flagged for a closer look

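Among the loci whose values are printed, the effect of the genotype differed between V3 and R6 leaves at 2 undescribed loci, by the interaction term of the edgeR fit with Benjamini-Hochberg adjustment over all loci. They are named here after their values were seen. At 3 more undescribed loci that the naming rule reached, whose IDs are not printed, the difference also passed (adjusted p = 0.0497 each). Glyma.06G293900 held 0.826, 1.18 and 0.996 CPM in GmNAC81-3 V3 leaves, against 23.6, 12.4 and 20.2 CPM in BR16 V3 leaves. At R6 the order was turned, with 9.24, 12.4 and 9.41 CPM in GmNAC81-3 against 3.07, 2.73 and 2.1 CPM in BR16. The log2 fold change was -4.23 at V3 (adjusted p = 0.000381) and 1.97 at R6 (adjusted p = 0.0165), a difference of -6.20 (adjusted p = 0.000124) that all 3 libraries of each group follow.

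Glyma.13G089100 held 18.3, 26 and 19 CPM in GmNAC81-3 V3 leaves, against 3.53, 2.96 and 2.71 CPM in BR16 V3 leaves, and 0.861, 1.62 and 1.53 CPM in GmNAC81-3 R6 leaves, against 1.85, 1.98 and 1.56 CPM in BR16 R6 leaves. The difference between the effects was 3.20 on the log2 scale (adjusted p = 0.0257, edgeR). Both stages were sequenced as sets of their own, so that stage and set cannot be told apart, while each effect is a contrast within 1 set.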

How the results depend on the processing

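Of the counts, 691 higher and 667 lower, those with DESeq2's size factors (746 and 611), no expression filter (596 and 647), at least 10 counts in every library (663 and 469), no fold limit (943 and 792), the replicate block in V3 libraries only (862 and 951) and transcript models (966 and 784) stayed within 1.5 times. They moved further with DESeq2 (1429 and 1690), the V3 libraries alone (8 and 6), the replicate block in all libraries (404 and 370), an adjusted p of at most 0.01 (143 and 63), library sizes without the 3 most abundant loci (306 and 6921) and without replicate 1 of both V3 groups (1234 and 1902). Leaving out single libraries gave 89 to 1053 higher and 62 to 1766 lower loci. The cause was not tested. GmNAC81 (log2 fold change 4.11) missed the threshold with the V3 libraries alone (4.08, adjusted p = 0.0657) and at an adjusted p of at most 0.01 (4.11), and ran from 3.32 to 4.52 with each library left out; the replicate block in V3 libraries only gave 3.86 and kept the call. Differences below 0.122 CPM, 3 counts in the shallowest GmNAC81-3 V3 library after scaling, were not detectable at this depth.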

Other observations

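Among the described loci not named above, the defence genes leaned lower in GmNAC81-3. Of 24 tested loci of chitinases, PR4, WRKY factors, chalcone synthases and related genes, 1 was called higher and 1 lower, and 18 had a negative log2 fold change (median -2.11; -1.24 without BR16 V3 replicate 2). Chitinase CHIV (Glyma.13G346700), which degrades chitin of fungal walls, held 2.25, 1.30 and 1.35 CPM in GmNAC81-3, against 3.28, 14.6 and 14.5 CPM in BR16 (log2 fold change -2.72 ± 0.62, adjusted p = 0.0344, edgeR). BR16 replicate 1 lay close to the GmNAC81-3 libraries. PR4 (Glyma.03G247500) held 0.594, 2.03 and 0.712 CPM in GmNAC81-3, against 2.08, 23.1 and 8.62 CPM in BR16, and missed the threshold (adjusted p = 0.0508) but was called in the paired fit (adjusted p = 0.00899).

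All 5 tau glutathione S-transferase loci had a negative log2 fold change (median -2.16), and 1 was called. BR16 V3 replicate 2 was the highest library at 4 of the 5, and without it the median was -1.51 and none was called. GSTU7 Glyma.05G161600 held 0.066, 0.65 and 0.569 CPM in GmNAC81-3, against 1.28, 8.92 and 2.65 CPM in BR16 (adjusted p = 0.033, edgeR). At R6, in other libraries, the defence list had a median of -1.13 with 5 of 24 above 0, and the transferases had a median of -0.74 with 1 of 5 above 0. The BTB and TAZ protein BT4 (Glyma.01G193300), a scaffold protein of plants, held 2.44, 5.73 and 6.26 CPM in GmNAC81-3, against 0.751, 0.232 and 0.262 CPM in BR16 (log2 fold change 3.55 ± 0.57, adjusted p = 0.00967, edgeR). Of the 3 tested BTB and TAZ loci, another was called lower. Its libraries overlapped, and the paired fit did not call it lower. Left out in turn, BR16 V3 replicate 3 ended the calls of CHIV, GSTU7 and BT4 (adjusted p up to 0.13, 0.0934 and 0.0648), and BR16 V3 replicate 2 and GmNAC81-3 V3 replicates 2 and 3 those of CHIV and GSTU7, which were kept in 6 of the 12 fits each. SCAR2 (Glyma.18G209100), a protein of actin assembly, held 8.65, 4.51 and 1.99 CPM in GmNAC81-3, against 1.54, 1.47 and 1.67 CPM in BR16 (adjusted p = 0.0461; paired fit 0.0749; kept in 1 of the 12 fits). PIMT1 (Glyma.04G190200), a protein repair enzyme, held 7.73, 10.7 and 9.71 CPM in GmNAC81-3, against 3.79, 4.22 and 5.2 CPM in BR16 (adjusted p = 0.03; kept in 6 of the 12 fits).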
